A study of Mus musculus with 15 samples.

Results

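Potassium channel subunit genes were read from mouse heart RNA as the genes whose probe sets the array's annotation assigns to a single symbol beginning with Kcn. They number 42 of 8251 genes with a single-symbol probe set, on 51 of 10833 such probe sets. A probe set is a group of short probes that reads 1 transcript. For 9 of the genes the array holds more than 1 probe set, and the one with the highest mean stands for the gene. Symbols are those of the GRCm38.p6 assembly table.

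The study removed MAT1, the assembly factor of the kinase module of the transcription factor TFIIH, from heart muscle cells. MAT1 is encoded by Mnat1. Knockout mice (CKO, αMHC-Cre+/0 with MAT1F/F) carried 2 floxed alleles, which Cre recombinase deletes. Control littermates (αMHC-Cre+/0 with MAT1F/+) carried 1 floxed and 1 wild-type allele, so the Cre transgene and a deleted allele are common to both. The α-myosin heavy chain promoter drives Cre in cardiomyocytes, and the other cells of the heart keep the gene. Hearts were taken at 2 weeks of age (3 control and 4 knockout arrays) or at 4 weeks (3 control and 5 knockout arrays). All 15 arrays had 1 colour, with biotin-labelled material.

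Potassium channels let potassium leave the cell, which ends the action potential and holds the resting potential. Among the voltage-gated pore subunits, Kcnd2 and Kcnd3 carry the transient outward current, Kcna5 an ultrarapid current, Kcnh2 the rapid delayed rectifier and Kcnq1, with its partner Kcne1, the slow one. Inward rectifiers hold the resting potential (Kcnj2, Kcnj12), open with acetylcholine through G proteins (Kcnj3 with Kcnj5), or sense ATP together with a sulfonylurea receptor (Kcnj8, Kcnj11). Tandem-pore channels such as Kcnk2 and Kcnk3 carry background leak currents. In mouse ventricle the action potential is short, and transient outward and ultrarapid currents do most of the repolarising.

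Array medians ran from 174 to 217, in the deposited intensity units. The labels do not say whether each array is a different mouse, so the p-values measure only the spread between these arrays, which may be technical. Clustering of the arrays by their pairwise correlation gave 2 sets, with 6 and 9 members (at least 0.937 within a set and at most 0.924 between sets). The sets cross the groups, and the labels do not say what they are. At each age set 1 holds 1 control array and 2 knockout arrays: replicate 1 of the controls and replicates 1 and 2 of the knockouts at 4 weeks, replicate 3 of the controls and replicates 3 and 4 of the knockouts at 2 weeks. Values are therefore also given from a fit with the set as a block and, for some genes, within each set. By Xist against Uty, 4 of the 5 knockout arrays at 4 weeks came from females, against 1 of 3 controls, 1 of 3 controls at 2 weeks and 1 of 4 knockouts at 2 weeks. The brighter of 2 Mnat1 probe sets read 86.0 to 244 in control and 141 to 314 in knockout hearts at 4 weeks. The sources used here do not place its probes inside or outside the deleted segment, so it does not check the labels. All 9 measured cardiomyocyte markers passed the brightness filter described next.

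The first question was which channel genes are read above background in heart. A gene passed the filter when its mean over the 15 arrays, on the log2(intensity + 16) scale, lay above that of the dimmest 40% of genes, at an intensity of 184. By this rule 18 of 42 potassium channel genes passed (42.9%), against 60.0% of all genes. The filter does not show expression, since 18 of 43 measured genes that heart should lack (41.9%), such as lens crystallins and pituitary hormones, passed it too. Their 90th percentile lay at 652, and 2 potassium channel genes had a mean above it: Kcna7, a voltage-gated pore subunit of muscle, and Kcnj8, the pore of an ATP-sensitive channel. Kcna7 averaged 2181, with arrays from 1439 to 3294, and Kcnj8 averaged 839, with arrays from 595 to 1193. Counted against the same percentile on each array, Kcna7 lay above it on all 15 arrays, Kcnj8 on 9, Kcna5 on 7, Kcne1 and the related auxiliary subunit gene Kcne1l on 4 each, and Kcnj11, Kcnh2 and Kcnu1 on 1 each. The other 34 genes lay above it on no array.

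**Figure D1:**
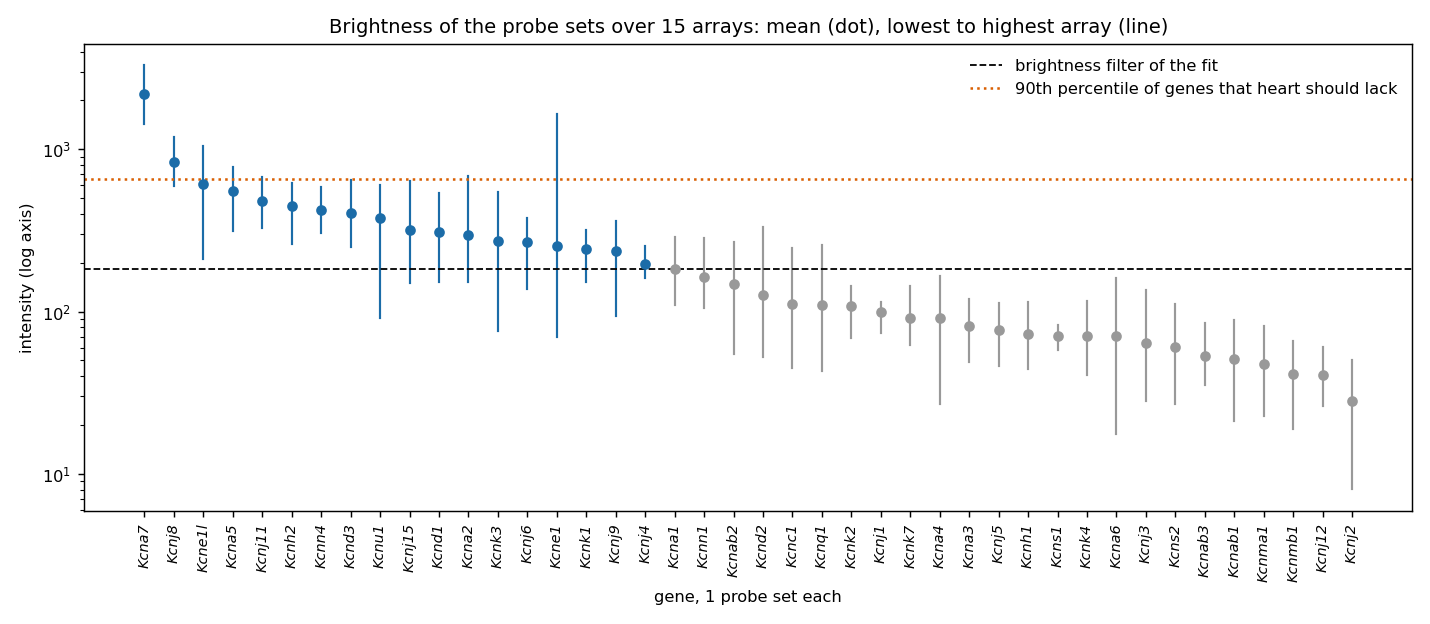
Mean intensity (dot) and lowest to highest array (line) of the 42 potassium channel genes over 15 arrays, on a log axis, with the filter (dashed, 184) and the 90th percentile of genes that heart should lack (dotted, 652). Genes past the filter are blue, and the means of Kcna7 and Kcnj8 alone lie above the dotted line; probes differ in brightness, so the order is not an order of RNA amounts.

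The 18 genes past the filter spread over all families. Of 16 voltage-gated pore subunits 6 passed: Kcna7, Kcna5, Kcnh2, Kcnd3, Kcnd1, another pore subunit of the transient outward family, and Kcna2, a delayed rectifier best known from neurons. Of 5 auxiliary subunits, Kcne1l and Kcne1 passed, Kcne1 through its 2-week arrays alone. Of 11 inward rectifiers 6 passed. These were the ATP-sensitive pores Kcnj8 and Kcnj11, together with Kcnj15, Kcnj6, Kcnj9 and Kcnj4, of which Kcnj6 and Kcnj9 form G-protein-gated channels. Of 5 tandem-pore channels Kcnk3 and Kcnk1 passed. Of 5 genes of the calcium- or sodium-activated family Kcnn4 and Kcnu1 passed.

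Below the filter lay 24 genes, whose probe sets averaged from 28.0 (Kcnj2) to 183 (Kcna1). Ranges here run from the lowest to the highest of the 15 arrays. Several are known from textbook heart currents: the voltage-gated Kcnd2 (52.3 to 332) and Kcnq1 (42.8 to 256), the inward rectifiers Kcnj2 (8.02 to 50.4), Kcnj3 (28.1 to 135), Kcnj5 (46.1 to 113) and Kcnj12 (26.0 to 60.9) and the tandem-pore channel Kcnk2 (68.4 to 144). The rest are grouped by family alone, whatever their part in heart currents. Voltage-gated ones were Kcna1 (109 to 286), Kcna3 (49.2 to 119), Kcna4 (27.1 to 167) and Kcna6 (17.6 to 162). So were Kcnc1 (44.6 to 247), Kcnh1 (44.5 to 114), Kcns1 (57.6 to 82.9) and Kcns2 (26.9 to 111). The cytoplasmic beta subunits were Kcnab1 (21.3 to 88.6), Kcnab2 (54.9 to 269.8) and Kcnab3 (35.2 to 84.7). The renal inward rectifier Kcnj1 (73.5 to 115) and the tandem-pore genes Kcnk4 (40.8 to 115) and Kcnk7 (62.0 to 143) lay there too, as did the calcium-activated family genes Kcnn1 (106 to 282), Kcnma1 (22.7 to 82.0) and Kcnmb1 (18.9 to 66.3). Single arrays of several of these genes reached above the filter's intensity. A dim probe set does not show that the RNA is absent, because probe sets differ in their response.

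Part of the spread of these genes followed the array sets. Adjusted for the 4 groups, set 2 minus set 1 had a median of -0.43 (log2) over the 18 genes past the filter, against -0.0019 over all tested genes, and 12 of the 18 were lower in set 2 (50.1% of all tested genes). In Kcna2 (-1.60), Kcnj15 (-1.26), Kcnd3 (-0.84), Kcnd1 (-0.79) and Kcnn4 (-0.54) the sets did not overlap, 5 of 18 where 36.1% of tested genes did so. Kcna2 read 479 to 681 in set 1 and 151 to 223 in set 2, whatever the group. Kcne1 was the furthest in the other direction (0.82). Among all 42 genes the sets did not overlap in 12 (34.1% of all 8251 genes), 7 of them voltage-gated pore subunits, with the largest difference in Kcnq1 (-1.76). An unblocked comparison of such a gene holds the set difference in its error.

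**Figure D2:**
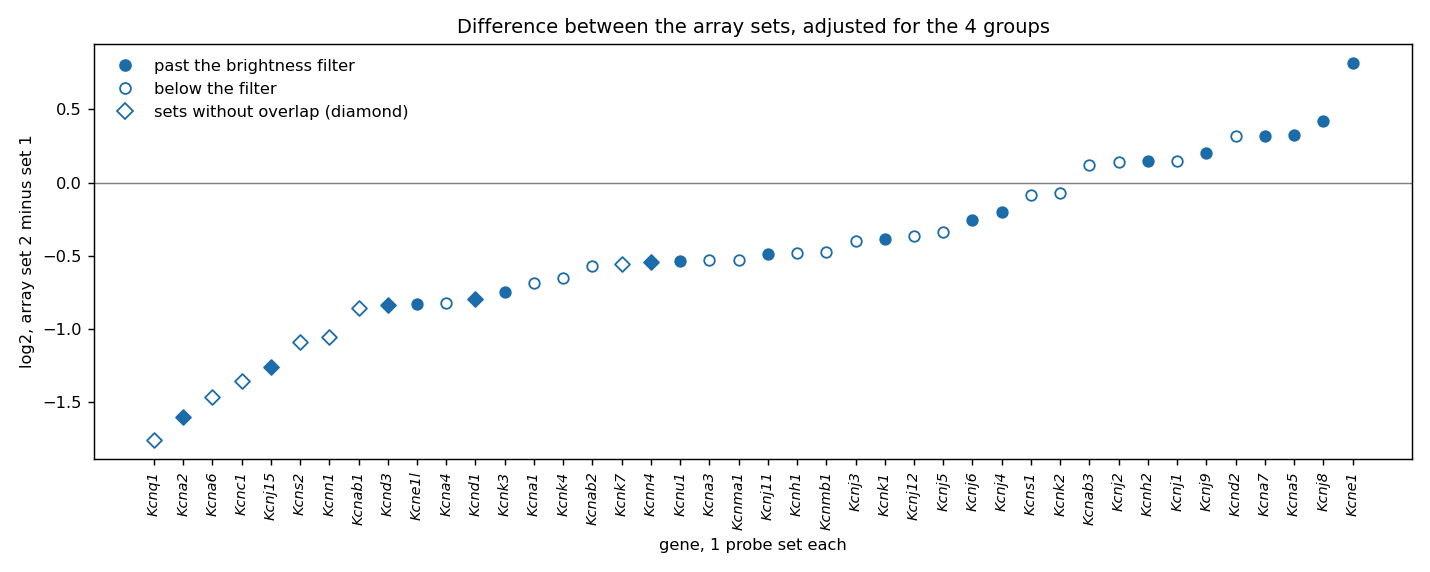
Difference between array sets (set 2 minus set 1, log2, adjusted for the 4 groups) for each of the 42 potassium channel genes in ascending order. Filled symbols mark genes past the brightness filter and diamonds the 12 genes whose sets do not overlap, which all read lower in set 2.

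The main question was what loss of MAT1 changed at 4 weeks. Differences are on the log2(intensity + 16) scale, ± their standard error. Fewer cells of a type and less RNA per cell cannot be told apart in these bulk samples. Of the 18 tested genes 1 was lower in knockout hearts, Kcnh2, and none was higher, where 4.61% of the 4950 tested genes were lower and 6.59% higher. Kcnh2, the pore of the rapid delayed rectifier, was 1.65-fold lower. In a fit to all 8251 genes, made to reach the dim ones, 3 of 42 were lower and none higher, against 3.18% and 4.86% of all genes. The additional genes were Kcnd2, a pore of the transient outward current, 2.39-fold lower, and Kcnj3, a pore of the acetylcholine-gated channel, 2.01-fold lower. Among all calls of limma at this age 58.8% were higher in knockout hearts, a share of 43.8% after quantile normalization and 44.4% after median scaling.

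At 4 weeks Kcnh2 read 517, 497 and 567 on the control arrays and 316, 343, 260.4, 359.7 and 297 on the knockout arrays. Every knockout array lay below every control array, in both array sets, as 17.4% of tested genes did in either direction. Control arrays averaged 527 ± 36.1 (SD, n = 3) and knockout arrays 315 ± 39.0 (SD, n = 5), a difference of -0.72 ± 0.16 (log2, standard error) with limma adjusted p = 0.00771. A fit with the set as a block gave -0.71 ± 0.13 (adjusted p = 0.000491), and -0.63 within set 1 and -0.78 within set 2. The call held without each of the 15 arrays in turn, with adjusted p up to 0.0450. With array set and inferred sex both as blocks the difference was -0.76 ± 0.14 (adjusted p = 0.000633).

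The 4-week control arrays gave 149, 187 and 207 for Kcnd2, and the knockout arrays 58.4, 52.3, 77.2, 61.3 and 84.9. Again the groups did not overlap (14.5% of all 8251 genes), and the highest knockout array was well below the lowest control array. The group means were 181 ± 29.4 (SD, n = 3) and 66.8 ± 13.7 (SD, n = 5), a difference of -1.26 ± 0.22 (adjusted p = 0.00265 in the fit to all genes) that was -1.23 ± 0.18 with the block (adjusted p = 8.15e-05), and -1.21 and -1.24 within sets 1 and 2. A second, dimmer Kcnd2 probe set gave 65.9, 59.3 and 60.7 on control arrays and 27.9, 26.2, 21.9, 20.5 and 25.5 on knockout arrays, again without overlap. Its difference was -0.95 ± 0.23, called in a fit to all 12422 probe sets (adjusted p = 0.0241), where 6.27% of probe sets were. Both probe sets kept their calls with the block.

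For Kcnj3 the control arrays at 4 weeks gave 99.8, 111 and 135, and the knockout arrays 73.9, 61.5, 49.6, 41.9 and 28.1. The groups did not overlap, though the 2 knockout arrays of set 1 lay closest to the controls. Means were 115 ± 18.0 (SD, n = 3) and 51.0 ± 17.6 (SD, n = 5), and the difference was -1.004 ± 0.25 (adjusted p = 0.0221 in the fit to all genes), or -1.03 ± 0.19 with the block (adjusted p = 0.000731). It differed by -0.47 within set 1, with 1 control array and no call there, and by -1.33 within set 2. Without the block the call was lost without control 4 wk replicate 2 (adjusted p = 0.0797), control 4 wk replicate 3 (adjusted p = 0.114) or CKO 4 wk replicate 4 (adjusted p = 0.0514). Kcnj5, which joins Kcnj3 in the same channel, was not called.

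The start regions of the 3 genes that were lower are shown because MAT1 belongs to a complex that acts at promoters. Each line gives the 250 bases before the start in RefSeq (GRCm38.p6), 5′ to 3′ on the strand of the gene. Of the 42 genes 33 had an entry. Kcnh2 lies on the minus strand at chr5:24329592-24329841, Kcnd2 on the plus strand at chr6:21215096-21215345 and Kcnj3 on the plus strand at chr2:55435720-55435969. Capitals mark matches to a GC box (GGGCGG), the one searched motif found among 4 sought on both strands.
Kcnh2: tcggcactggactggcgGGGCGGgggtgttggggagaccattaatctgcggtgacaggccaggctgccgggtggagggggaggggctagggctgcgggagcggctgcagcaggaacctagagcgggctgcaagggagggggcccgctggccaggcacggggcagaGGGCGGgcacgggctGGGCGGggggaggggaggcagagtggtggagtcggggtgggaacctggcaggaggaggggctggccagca
Kcnd2: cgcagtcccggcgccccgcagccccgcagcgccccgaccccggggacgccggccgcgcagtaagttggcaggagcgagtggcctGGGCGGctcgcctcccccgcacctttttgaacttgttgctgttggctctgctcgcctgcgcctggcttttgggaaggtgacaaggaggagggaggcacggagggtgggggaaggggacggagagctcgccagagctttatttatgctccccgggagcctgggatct
Kcnj3: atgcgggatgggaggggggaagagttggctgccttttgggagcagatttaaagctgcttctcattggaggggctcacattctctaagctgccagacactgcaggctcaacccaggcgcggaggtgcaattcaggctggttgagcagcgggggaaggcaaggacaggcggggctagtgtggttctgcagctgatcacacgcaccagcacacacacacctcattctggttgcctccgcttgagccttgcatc
Kcnh2 holds 3 GC boxes and Kcnd2 1, while Kcnj3 holds none. GGGCGG occurs in 32.7% of all 32851 such windows. The other letters sought were TATAAA (12.4% of windows), AGATAA (9.99%) and AAGGTCA (4.08%), none of which occurs in these 3, and the 4 motifs do not overlap in them. The windows have 73.6% (Kcnh2), 68.8% (Kcnd2) and 58.4% (Kcnj3) G and C, against a median of 52.4%, and 14, 22 and 7 CpG, against a median of 6. Such windows are not particular to the lower genes. Kcnj4, not called, has 77.2% G and C and 3 GC boxes. Kcnc1, called higher only with the array-set block, has 74.4% and 3. Other potassium channel genes hold none, such as Kcna7 with 48.4%. A match describes letters and shows no binding.

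Under the block, 2 further tested genes were called lower at 4 weeks, Kcne1l and Kcnk3, which made 3 of 18 lower and none higher against 12.2% and 23.2% of tested genes. Kcne1l encodes an auxiliary subunit related to Kcne1. On the control arrays it read 934, 734 and 555, and on the knockout arrays 661, 766, 371, 345 and 211. The 3 lowest knockout arrays are those of set 2, and the groups overlapped when the sets were pooled. Unblocked, the difference was -0.75 ± 0.38 (adjusted p = 0.267), and it was -0.80 ± 0.20 with the block (adjusted p = 0.00545), -0.38 within set 1 and -1.05 within set 2.

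Kcnk3, an acid-sensitive background leak channel, gave 549, 264 and 401 on the control arrays and 313, 373, 75.4, 192 and 211 on the knockout arrays. Within each set every knockout array lay below every control array, but the sets overlapped. The difference was -0.86 ± 0.40 unblocked (adjusted p = 0.215), and -0.91 ± 0.27 with the block (adjusted p = 0.0157). The blocked call was lost without control 4 wk replicate 3 (adjusted p = 0.0897).

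**Figure D3:**
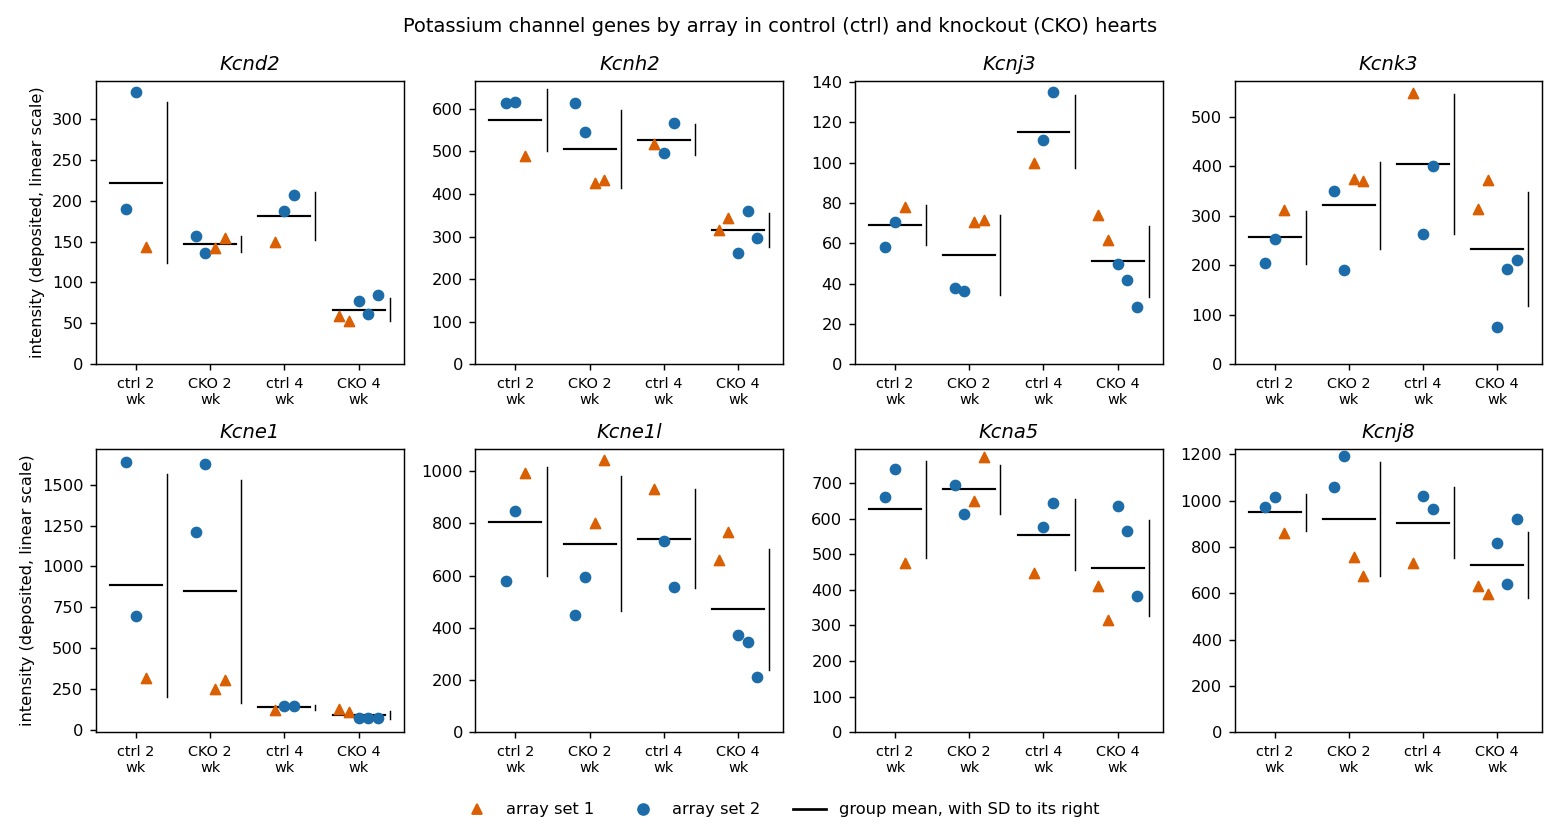
Deposited intensity (linear axis from 0) on every array for 8 potassium channel genes in the 4 groups. Triangles are array set 1 and circles set 2, the horizontal line is the group mean and the vertical line to its right spans 1 SD on either side; knockout arrays at 4 weeks lie below all 4-week controls in Kcnd2, Kcnh2 and Kcnj3, and Kcne1 is low on all 4-week arrays.

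Among dim genes, the block called 2 higher at 4 weeks, Kcnk2 and Kcnc1, so that in the fit to all genes 2 of 42 were higher and 5 lower, against 17.1% and 9.08% of all genes. Kcnk2, a leak channel opened by stretch, gave 78.6, 73.9 and 68.4 on control arrays and 123, 126, 137, 76.2 and 111 on knockout arrays. CKO 4 wk replicate 4 alone reached into the control range. Its difference was 0.52 ± 0.16 (adjusted p = 0.0667), or 0.52 ± 0.15 with the block (adjusted p = 0.0161), which rose to adjusted p = 0.0626 without control 4 wk replicate 3. Unblocked, it was called without CKO 4 wk replicate 4 (adjusted p = 0.0112).

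Kcnc1, a fast delayed rectifier of neurons, gave 175, 57.6 and 54.8 on control arrays and 228, 231, 101, 92.1 and 87.6 on knockout arrays. Set 1 was higher than set 2 throughout, and in each set the knockout arrays lay above the controls. The difference was 0.60 ± 0.51 (adjusted p = 0.666) and 0.51 ± 0.13 with the block (adjusted p = 0.00751).

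The remaining tested genes gave no call at 4 weeks with or without the block. The voltage-gated subunits Kcna5 (-0.29 ± 0.22), Kcna7 (-0.28 ± 0.22), Kcnd3 (-0.13 ± 0.34), Kcnd1 (-0.01 ± 0.37) and Kcna2 (0.11 ± 0.61) had adjusted p from 0.539 to 0.991. Kcnd3 shares the transient outward current with Kcnd2, and its 95% interval, -0.86 to 0.59, spans differences in both directions. Kcne1 differed by -0.57 ± 0.58, with 121, 148 and 146 on control arrays and 126, 106, 71.9, 75.1 and 69.4 on knockout arrays. All of these 4-week values lay below the intensity of the brightness filter. CKO 4 wk replicate 1, an array of set 1, was the only knockout array within the control range. Kcne1 differed by -0.06 within set 1 and by -0.89 within set 2.

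Inward rectifiers differed by -0.33 ± 0.21 (Kcnj8), -0.25 ± 0.22 (Kcnj11), -0.15 ± 0.25 (Kcnj9), -0.08 ± 0.51 (Kcnj15), -0.05 ± 0.18 (Kcnj4) and 0.25 ± 0.25 (Kcnj6). The ATP-sensitive pores Kcnj8 and Kcnj11 had blocked adjusted p of 0.0558 and 0.0704. The tandem-pore gene Kcnk1 differed by 0.09 ± 0.24. In the activated family Kcnn4 differed by 0.03 ± 0.23 and Kcnu1, a sperm channel gene, by -0.77 ± 0.42, with 0.18 within set 1 and -1.37 within set 2. Over all 18 tested genes the median difference was -0.20, against 0.08 over all tested genes, and 14 of 18 were below 0, against 39.2% of all. Before adjustment 2 of the 18 had a limma p under 0.05, Kcnh2 and Kcnk3, and 6 had one under the block. Of all 4950 tested genes 1133 had one, and 2180 under the block.

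Probe sets of the same gene did not always read alike. The brighter Kcnq1 probe set differed by 0.01 ± 0.67 at 4 weeks and by -0.11 ± 0.17 with the block, and was called in neither. The dimmer one gave 85.2, 96.6 and 103 on control arrays and 55.8, 50.7, 27.3, 61.9 and 62.5 on knockout arrays. There the groups did not overlap, and the difference was -0.74 ± 0.20 (adjusted p = 0.0396 over all probe sets, 0.00738 with the block). It also fell from 2 to 4 weeks in knockout hearts, by 0.71 on the log2 scale (adjusted p = 0.0496, 0.00718 with the block), where limma called 3.33% of probe sets, and 14.3% with the block. Kcnq1 is therefore uncertain here. With the block, the dimmer probe sets of Kcnj9 (-0.67, adjusted p = 0.00559) and Kcnj6 (0.44, adjusted p = 0.0130) were also called at 4 weeks, against 22.2% of all probe sets, where their brighter ones were not.

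Genes that work with these channels changed in both directions at 4 weeks. Of 14 tested partners and regulators (27 listed) 3 were higher and 3 lower, where 6.59% and 4.61% of all tested genes were. Abcc9, the sulfonylurea receptor of the heart's ATP-sensitive channel, differed by -1.90 ± 0.23, while its pores Kcnj8 and Kcnj11 were not called with or without the block. With the block and quantile normalization together both pores were called lower, at -0.40 for Kcnj8 and -0.37 for Kcnj11. Irx3, a transcription factor of the conduction system, differed by -1.45 ± 0.18, and Fhl2, a scaffold protein of heart muscle, by -0.79 ± 0.07. The genes that were higher were Cav3, the muscle caveolin (0.88 ± 0.09), Cttn, an actin-binding protein (0.79 ± 0.15), and Gnai2, a G protein subunit (0.45 ± 0.10). The block added Gnb1 among the higher ones, where it called 23.2% of tested genes higher and 12.2% lower.

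Of 19 tested genes for other cardiac ion channels and transporters (41 listed) 4 were higher and 6 lower, against the same 6.59% and 4.61% of all tested genes. Lower were the connexin genes Gja1 (-1.36 ± 0.09) and Gja5 (-0.67 ± 0.19), the calcium release channel Ryr2 (-1.19 ± 0.17), the calcium pump Atp2a2 (-0.41 ± 0.07), the calcium channel subunit Cacnb2 (-0.90 ± 0.19) and the chloride transporter Clcn3 (-0.46 ± 0.13). Higher were the calcium channel subunit Cacna2d1 (0.97 ± 0.28), the sodium pump subunit Atp1b1 (0.75 ± 0.19), its regulator Fxyd5 (1.02 ± 0.25) and the desmosome gene Pkp2 (0.63 ± 0.18). The block added Cacna1c, the pore of the L-type calcium channel, among the lower ones, against 12.2% of tested genes. At 2 weeks neither list held a call, where 0.0202% of tested genes were called.

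Markers of cell types moved with the 4-week comparison. Of 9 tested cardiomyocyte markers 5 were lower and 1 higher (4.61% and 6.59% of all tested genes), with a median of -0.30, and their summed intensity was 70556 to 76852 in control and 59895 to 66474 in knockout hearts. All 8 tested fibroblast markers were higher (median 1.34), with a summed intensity of 11238 to 12652 in control and 23904 to 31388 in knockout hearts over 9 measured markers. Smooth muscle or pericyte markers were higher in 2 of 9 (5 with the block), with sums of 7863 to 8915 in control and 9906 to 13636 in knockout hearts. Skeletal muscle markers were higher in 1 of 5 (2 higher and 1 lower with the block), with sums of 4205 to 6216 and 9259 to 10217. Atrial or conduction markers gave 1 higher (Nppa) and 1 lower (Gja5) of 4, with sums of 4336 to 4873 and 8628 to 11919. For none of these 5 lists did the sums of control and knockout arrays overlap. Nor did those of 2 erythroid markers, at 5889.9 to 7325 and 7430.4 to 13313. Of 8 endothelial markers 1 was higher (2 higher and 1 lower with the block). None of 7 macrophage, 3 lymphocyte, 3 nerve or glia, 2 erythroid and 2 lung markers was called by limma without the block. The block called 1 lymphocyte, 1 erythroid and 1 nerve or glia marker higher and 1 nerve or glia marker lower. Over all tested genes it called 23.2% higher and 12.2% lower. The part that a changed mix of cells has in the channel values was not tested.

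At 2 weeks no potassium channel gene was called, in the tested set or in the fit to all genes, with or without the block. Over all tested genes limma called 0.0202% at this age, and 0.0808% with the block. In the fit to all genes it called 0.0121%, and 0.0727% with the block. Before adjustment 1 of the 18 had a p under 0.05, Kcnj9, as had 51 of the 4950. The control arrays gave 364, 309 and 287 for Kcnj9 and the knockout arrays 207, 205, 94.5 and 252. The groups did not overlap, as in 2.42% of tested genes, and the difference was -0.77 ± 0.27 (adjusted p = 1.000), with -0.74 ± 0.24 under the block (adjusted p = 0.630). A dimmer Kcnj9 probe set gave 350, 233 and 96.55 on control arrays and 304, 298, 82.9 and 79.3 on knockout arrays. There the groups overlapped, and the difference was -0.31 ± 0.68, or -0.02 with the block, not called in either fit. Among dim genes Kcnk2 and Kcnj2 did not overlap between the groups, where 2.36% of all genes did not.

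The genes called at 4 weeks were also read at 2 weeks. For Kcnh2 the control arrays gave 615, 616 and 489.5 and the knockout arrays 615, 545, 426 and 433. The groups overlapped, and the difference was -0.19 ± 0.16. For Kcnd2 the control arrays gave 189, 332 and 144 and the knockout arrays 156, 136, 142 and 154. It differed by -0.47 ± 0.23, with a wide spread among controls that took in all but CKO 2 wk replicates 2 and 3. Kcnj3 differed by -0.31 ± 0.26, Kcnk3 by 0.28 ± 0.42, Kcne1l by -0.19 ± 0.39, Kcnk2 by 0.27 ± 0.17 and Kcnc1 by 0.65 ± 0.54, none past the threshold.

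**Figure D4:**
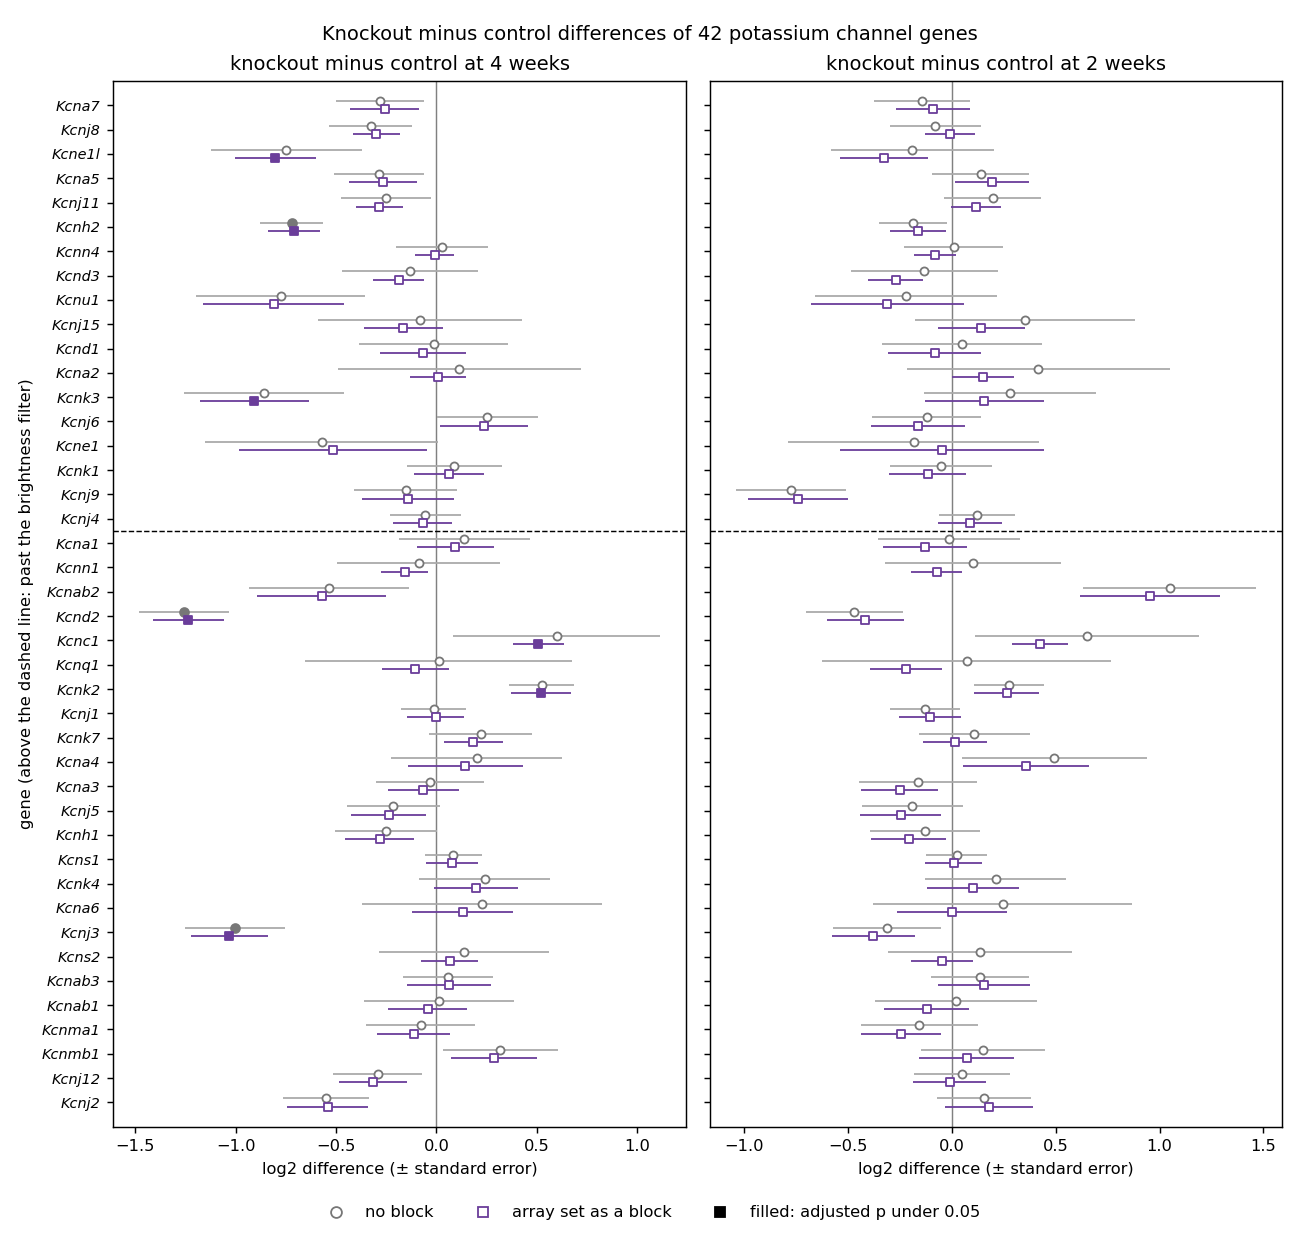
Knockout minus control difference (log2, ± standard error) of the 42 potassium channel genes at 4 weeks and at 2 weeks, without a block (circles) and with a block for the array set (squares), filled where the adjusted p lies under 0.05. Genes above the dashed line passed the brightness filter; at 4 weeks Kcnh2, Kcnd2 and Kcnj3 are filled in both fits, and at 2 weeks no symbol is filled.

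Whether the knockout effect itself differed between the ages was tested by the difference of both effects. No potassium channel gene was called, where 1.56% of tested genes were and 12.4% with the block. In the fit to all genes the shares were 0.764% and 7.44%. Before adjustment 1 of 18 had a limma p under 0.05 without the block, Kcnh2, and 3 had one with it. Of all 4950 tested genes 474 had one without the block and 1283 with it. For Kcnh2 the effect at 4 weeks minus that at 2 weeks was -0.53 ± 0.23 (adjusted p = 0.425, and 0.0703 with the block). For Kcnk3 the difference of effects was -1.14 ± 0.58 (adjusted p = 0.586, and 0.0908 with the block), and for Kcnd2 in the fit to all genes -0.79 ± 0.32 (adjusted p = 0.493, and 0.0653 with the block). These effects are thus called at 4 weeks and not shown to differ from those at 2 weeks.

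Age was compared within each genotype. In control hearts no potassium channel gene was called between 2 and 4 weeks, where 0.727% of tested genes were. Before adjustment 1 of 18 had a limma p under 0.05, as had 329 of the 4950 tested genes. With the block 1 was called, Kcne1, which was lower, against 5.92% of tested genes in either direction and 3.05% lower. In the fit to all genes no dim one was called with or without the block, where 0.376% and 3.64% of all genes were. In knockout hearts 2 were lower at 4 than at 2 weeks, Kcne1 and Kcnh2, and none was higher, against 2.81% and 3.76% of tested genes. The block brought the count to 5 lower and none higher, adding Kcne1l, Kcna5 and Kcnj8, against 10.8% and 14.3%. By Xist against Uty, 1 of 4 knockout arrays at 2 weeks and 4 of 5 at 4 weeks came from females. The 2 ages of knockout hearts thus differ in inferred sex as well. Cell type markers moved with age too. In knockout hearts 5 of 9 cardiomyocyte markers were lower and 1 higher at 4 weeks (7 lower with the block), 2 of 8 fibroblast markers were higher (4 with the block), and Myl7 and Nppa were higher among 4 atrial or conduction markers. In control hearts 2 of 8 fibroblast markers were lower (5 with the block), with a median of -0.89, and no cardiomyocyte marker was called. Their part in the channel values was not tested. The knockout comparisons across age and genotype share arrays, so their values are given side by side only.

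Kcne1, the auxiliary subunit of the slow delayed rectifier, gave 1639.9, 695 and 315 on the 2-week control arrays and 121, 148 and 146 on the 4-week ones. Knockout arrays gave 1213, 1624, 251 and 302 at 2 weeks and 126, 106, 71.9, 75.1 and 69.4 at 4 weeks. Every 2-week array lay above every 4-week array of its genotype, as in 10.1% of tested genes in controls and 9.98% in knockouts. The 2-week arrays of set 2 lay above those of set 1. Every 4-week value lay below the intensity of the brightness filter, and every 2-week value above it. Kcne1 thus passed the filter through its 2-week arrays, which also supply the higher side of the age difference. In knockout hearts it was lower at 4 weeks, by 6.21-fold (-2.63 ± 0.53, adjusted p = 0.00824), with -2.72 ± 0.43 under the block (adjusted p = 0.000251), -1.14 within set 1 and -4.01 within set 2. In control hearts the means differed by 4.75-fold (-2.25 ± 0.65, adjusted p = 0.230, and 0.0182 with the block), -1.27 within set 1 and -2.74 within set 2. The blocked call in controls was lost without control 4 wk replicate 2, control 4 wk replicate 3 or control 2 wk replicate 1, with adjusted p up to 0.124. The change with age in knockouts minus that in controls was -0.39 ± 0.84, within its error (adjusted p = 0.999).

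Kcnh2 differed by -0.64 ± 0.14 between 4 and 2 weeks in knockout hearts (adjusted p = 0.0151, and 0.000713 with the block) and by -0.11 ± 0.18 in control hearts (adjusted p = 0.999). The unblocked call in knockouts was lost after median scaling (adjusted p = 0.0739) and without CKO 2 wk replicate 2 (adjusted p = 0.0505). Kcnd2, in the fit to all genes, differed by -0.99 ± 0.20 in knockout hearts (adjusted p = 0.0126, and 0.000355 with the block), where 1.71% of all genes were lower and 2.64% higher, and 7.19% and 10.3% with the block. In controls it differed by -0.20 ± 0.25. Kcnh2 and the brighter Kcnd2 probe set read lower on each 4-week than on each 2-week knockout array. The dimmer Kcnd2 probe set gave 25.2, 28.1, 58.3 and 73.8 on 2-week knockout arrays, which overlapped its 4-week values given above. Its age difference, -0.55 ± 0.21, was not called (adjusted p = 0.252 over all probe sets, 0.0533 with the block).

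The 3 genes called in knockout hearts with the block alone did not pass without it. Kcna5, the ultrarapid current's pore, read 694, 612, 649.9 and 773 at 2 weeks and 410.0, 314, 636, 567 and 383 at 4 weeks in knockout hearts. These ranges overlapped in CKO 4 wk replicate 3, and the difference was -0.59 ± 0.21 (adjusted p = 0.120), or -0.62 ± 0.16 with the block (adjusted p = 0.00805). A dimmer Kcna5 probe set gave 0.18 ± 0.17, of the opposite sign, and was not called. Kcnj8 read 1061, 1193, 756 and 673 at 2 weeks and 633, 595, 819, 639.6 and 922 at 4 weeks. Both ages overlapped, and the difference was -0.33 ± 0.19 (adjusted p = 0.448), or -0.37 ± 0.11 with the block (adjusted p = 0.0177), a call lost without CKO 2 wk replicate 2 (adjusted p = 0.0904). For Kcne1l the 2-week knockout arrays gave 449, 596, 801 and 1044, which overlapped the 4-week values given above. It differed by -0.67 ± 0.35 (adjusted p = 0.359), or -0.59 ± 0.19 with the block (adjusted p = 0.0280), which was lost without CKO 2 wk replicate 2 or CKO 2 wk replicate 4, with adjusted p up to 0.104.

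In control hearts the other genes gave values with wide errors. Kcnj11 differed by 0.45 ± 0.25 between 4 and 2 weeks (blocked adjusted p = 0.0564), Kcnk3 by 0.59 ± 0.44, Kcnj6 by -0.46 ± 0.28 and Kcna7 by 0.35 ± 0.25. Among 24 dim genes 4 did not overlap between the ages (9.49% of all genes), Kcnj3, Kcnk2, Kcnab2 and Kcnj2, and none of them was called. Kcnj3 differed by 0.63 ± 0.28 (adjusted p = 0.769) and Kcnk2 by -0.49 ± 0.18 (adjusted p = 0.540). From 2 to 4 weeks mean Kcnj3 went from 68.8 to 115 in controls and from 54.1 to 51.0 in knockouts. Mean Kcnk2 went from 110 to 73.6 in controls and from 137 to 115 in knockouts. Kcnab2, given here after its values were seen, differed by 1.24 ± 0.45 (adjusted p = 0.530, and 0.0716 with the block). It differed by 0.19 within set 1 and by 1.76 within set 2. A dimmer Kcnab2 probe set, with a mean of 24.1, gave -0.01 ± 0.37 and did not show this difference. A difference that misses the threshold with 3 arrays a group does not show that the levels were alike.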

How the data were processed

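RNA from hearts was read on 15 one-colour arrays. The deposited table holds 1 intensity per probe set and array on a linear scale, per the values; the sources used here do not state how the authors scaled it or corrected its background. The platform annotation names 10833 of 12422 probe sets with 1 symbol, 396 with several and 1193 with none, and 10817 of the 10833 were matched to the GRCm38.p6 gene table. Each gene was read by its brightest probe set. Values were taken as log2(intensity + 16), so a fold change understates that of dim genes. The dimmest 40% of genes by mean were left out (4950 of 8251 stayed). limma 3.58.1 in R 4.3.3 was fitted with 1 coefficient per group over all 15 arrays and a trended eBayes prior; every adjusted p is limma's with Benjamini-Hochberg adjustment over the genes fitted, called under 0.05. Dim genes were read from a fit to all 8251 genes and further probe sets from a fit to all 12422. Array sets came from average-linkage clustering of the arrays' correlations, and inferred sex from Xist and Uty. The procedure was tested on simulated data.

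The potassium channel genes and all gene lists were chosen with earlier results of these data known. Genes are named by this rule: all potassium channel genes above background are named, and dim ones are named with their range. Channel genes called in any of the 5 comparisons, with or without the array-set block, get the value of each array in the groups compared. Kcnab2 and Kcnq1 aside, a dim gene gets a group difference only if called in the fit to all genes, with or without the block. In the lists of partners and of other channels, genes are named where called between knockout and control hearts. Over all groups 7 of 19 same-numbered pairs of arrays had a correlation of deviations over 0.1 (from -0.82 to 0.89), so the numbers do not pair the arrays across the study. At 2 weeks all 3 control and knockout pairs did (0.81, 0.67 and 0.89), and there same-numbered arrays lie in the same array set. At 4 weeks the control and knockout pairs of replicates 1 and 3 did (0.83 and 0.58), each within 1 array set. Replicate 2, whose arrays lie in different sets, did not (-0.55). Pairing by number cannot be told apart from the array set here. Sequences are from RefSeq. The number of arrays limits the precision. Alternatives tried were quantile normalization, median scaling, array set or inferred sex as blocks, each set alone, a replicate block, pseudocounts of 1 and 64, other filters, the mean of all probe sets and leaving out each array.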

Additional observations from a re-analysis of the deposited data

Results flagged for a closer look

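Among 36 combinations of the 18 tested potassium channel genes with a group of 4 or 5 arrays, 1 held an array that stood apart by Dixon's test at the 95% level, a rate that chance gives in about 1 in 20 groups. It was Kcnk3 at 2 weeks in knockout hearts. CKO 2 wk replicate 2 gave an intensity of 189.56, where the other 3 arrays gave 349.39, 370.79 and 373.59. Kcnk3 was not called at this age, at 0.28 ± 0.42 (log2, standard error).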

How the results depend on the processing

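The sign of all 14 called values held under the alternatives run, and the cause of the shifts in counts was not tested. Fits within 1 array set estimate its effect with as few as 1 control array a group. At 4 weeks 554 genes were called, 1756 with a block for the array set, 1169 within set 1, 1435 within set 2, 1737 with the block and quantile normalization, 1564 with set and inferred sex as blocks and 308 among genes above the off-tissue 90th percentile. Against 1 potassium channel gene the counts were 3, 2, 6, 5, 3 and 0 in that order, 3 with no filter and 2 with the lowest 20% left out. The potassium channel genes called within set 2 at 4 weeks included Kcne1 (-0.89) and Kcnu1 (-1.37), both lower, and Kcnj6 (0.66), higher. At 2 weeks 1 gene was called, 2 after quantile normalization, 4 with the block, 3 within set 2, 4 with the block and quantile normalization and 4 with set and sex. For the difference of effects 77 genes were called, 7 after median scaling, 616 with the block, 297 within set 1, 358 within set 2, 647 with the block and quantile normalization and 450 with set and sex. Among them was 1 potassium channel gene within set 1 (Kcnk3) and 1 with the block and quantile normalization (Kcnh2). For age in controls 36 genes were called, 11 after median scaling, 293 with the block, 266 within set 2, 294 with the block and quantile normalization, 322 with set and sex and 23 above the off-tissue percentile. Potassium channel genes among them numbered 1 with the block, 1 within set 1, 1 within set 2, 2 with the block and quantile normalization and 1 with set and sex. For age in knockouts 325 genes were called, 180 after median scaling, 1242 with the block, 1052 within set 1, 905 within set 2, 1295 with the block and quantile normalization, 1117 with set and sex and 208 above the off-tissue percentile. Against 2 potassium channel genes the counts were 1 after median scaling, 5 with the block, 5 with the block and quantile normalization, 4 with set and sex and 0 above the off-tissue percentile. The 18 genes above background became 28 with the lowest 20% left out and 2 above the off-tissue percentile.

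With the replicate number as a block, which is not shown to pair arrays, 1 gene and 0 potassium channel genes were called at 2 weeks. These are the same counts as without it. It called 316 genes at 4 weeks, 23 for the difference of effects, 15 for age in controls and 151 for age in knockouts, with 1 potassium channel gene in the last. Under this replicate block Kcnh2 stayed called at 4 weeks (adjusted p = 0.0492), and Kcnj3 did not (adjusted p = 0.121). Neither Kcnh2 (adjusted p = 0.0742) nor Kcnd2 (adjusted p = 0.0573) stayed called for age in knockouts under it.

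Leaving out 1 array at a time gave 307 to 590 genes at 4 weeks (307 without control 4 wk replicate 2, 353 without control 4 wk replicate 3), 1 to 2 at 2 weeks, 20 to 83 for the difference of effects, 7 to 46 for age in controls and 207 to 338 for age in knockouts. Potassium channel genes called numbered 1 at 4 weeks throughout, 1 to 2 for age in knockouts (1 without CKO 2 wk replicate 2) and 0 for the other comparisons, and 18 to 19 passed the filter. The fits with an array left out under the block, to all genes and to further probe sets were chosen after the data were seen.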
